A study of Mus musculus with 12 samples.

Results

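Transcripts of 9 genes of the thick ascending limb were followed in mouse kidney and in cells prepared from kidney: Umod, Egf, Kcnj1, Bsnd, Cldn10, Cldn16, Cldn19, Ptger3 and Irx1. They were chosen by gene name, all 9 of 9 were found in both count tables, and they stood among 13733 nuclear protein-coding genes that the tables shared. Mice were edited with CRISPR-Cas9 and were homozygous for the Arg or the Trp allele of a coding polymorphism in Sh2b3, the gene of the adaptor protein LNK. All mice had received angiotensin II, a pressor hormone used to cause hypertension, for 4 weeks. There was no library from mice without it. The 12 libraries of polyadenylated RNA fell into 4 groups with 3 biological replicates in each, which were whole kidney of Arg/Arg mice, whole kidney of Trp/Trp mice, and cells labelled as F4/80+ macrophages of either genotype. Whole kidneys were kept in RNAlater, whereas the F4/80+ cells came from other kidneys by a Percoll density gradient and magnetic beads against F4/80, a surface protein of mouse macrophages. The sources used here did not give strain, sex or age.

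The thick ascending limb of the loop of Henle reabsorbs salt without water. Sodium, potassium and chloride enter its cells through the cotransporter NKCC2, potassium returns to the lumen through the channel ROMK, and chloride leaves on the blood side through channels that need the subunit barttin. The lumen is thereby positive, which drives sodium, calcium and magnesium through the tight junctions, where claudins set which ion passes. The segment also makes uromodulin, the most abundant protein of normal urine.

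The set covered these roles except entry through NKCC2, whose gene Slc12a1 was not a member. Umod (ENSMUSG00000030963.6, chr7:119462711-119479282 in mm10, minus strand) encodes uromodulin, and Egf (ENSMUSG00000028017.7, chr3:129677565-129755316, minus strand) encodes the precursor of epidermal growth factor. Kcnj1 (ENSMUSG00000041248.9, chr9:32372493-32399197, plus strand) encodes ROMK, and Bsnd (ENSMUSG00000025418.7, chr4:106483456-106492283, minus strand) encodes barttin. Cldn16 (ENSMUSG00000038148.13, chr16:26463135-26482765, plus strand) and Cldn19 (ENSMUSG00000066058.11, chr4:119255414-119262438, plus strand) encode claudins that act together in calcium and magnesium reabsorption. Cldn10 (ENSMUSG00000022132.15, chr14:118787908-118875489, plus strand) encodes a claudin with a sodium-selective form, claudin-10b, in the thick ascending limb and an anion-selective form, claudin-10a, in the proximal tubule. Ptger3 (ENSMUSG00000040016.16, chr3:157566892-157645888, plus strand) encodes the prostaglandin E receptor EP3, and Irx1 (ENSMUSG00000060969.9, chr13:71957921-71963723, minus strand) encodes a homeobox transcription factor.

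RefSeq promoter windows (GRCm38.p6) were matched by symbol for 7 of the 9 genes, in 10 windows. Those of Umod, Cldn10 and Cldn16 are shown, each as the 250 bases before the start, because Umod was the most abundant of the set and because Cldn10 and Cldn16 differed from each other in the F4/80+ libraries. Capitals mark CpG dinucleotides, the sites of DNA methylation.
Umod, chr7:119479263-119479512, minus strand: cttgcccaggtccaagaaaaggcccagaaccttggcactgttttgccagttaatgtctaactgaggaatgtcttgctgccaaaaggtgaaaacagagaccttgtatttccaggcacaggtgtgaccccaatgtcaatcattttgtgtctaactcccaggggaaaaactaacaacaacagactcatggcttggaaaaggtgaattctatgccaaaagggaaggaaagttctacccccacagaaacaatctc
Cldn10, upstream start, chr14:118787621-118787870, plus strand: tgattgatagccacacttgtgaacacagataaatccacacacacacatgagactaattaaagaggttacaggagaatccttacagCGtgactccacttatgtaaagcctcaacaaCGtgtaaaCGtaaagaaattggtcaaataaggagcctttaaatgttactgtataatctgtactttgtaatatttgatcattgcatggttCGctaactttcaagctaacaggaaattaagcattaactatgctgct
Cldn16, chr16:26462885-26463134, plus strand: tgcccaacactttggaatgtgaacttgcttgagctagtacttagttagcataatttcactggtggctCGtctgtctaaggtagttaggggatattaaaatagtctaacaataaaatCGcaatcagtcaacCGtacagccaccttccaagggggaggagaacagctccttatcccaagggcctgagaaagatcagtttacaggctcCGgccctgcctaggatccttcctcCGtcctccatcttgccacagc
Umod had 0 CpG in this window, Cldn10 had 4 and Cldn16 had 5, and the median over 32841 windows of the same length was 6. The share of G and C was 45.2% for Umod, 36.0% for Cldn10 and 48.0% for Cldn16, against a median of 52.4% over all windows. Cldn10 has another RefSeq start 67079 bases downstream, whose window held 22 CpG and 72.4% G and C. The counts per gene did not separate transcripts from these starts. Which of the starts gives claudin-10a and which gives claudin-10b was not looked at.

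The level of a transcript is its count per 1000000 nuclear protein-coding counts of the same library (CPM). Kidney libraries held 17.8 to 50.0 M of these counts (M for 1000000) and F4/80+ libraries 6.88 to 11.1 M, with 70.1 to 83.6% of all F4/80+ counts on mitochondrial genes. The 9 transcripts together took 0.522 to 0.585% of the nuclear protein-coding counts in kidney and 0.378 to 1.38% in the F4/80+ libraries. The F4/80+ libraries did not stand above whole kidney in macrophage transcripts. The summed level of 12 macrophage genes was 39.8 to 213 CPM there and 141 to 255 CPM in whole kidney. Adgre1, the gene of F4/80 itself, was at 1.26 to 16.7 CPM in the F4/80+ libraries and at 4.12 to 8.32 CPM in kidney, and none of the 12 macrophage genes was at 0 in any library. Of these genes 2 were called higher and 5 lower in F4/80+ libraries (edgeR), where 64.5% of all genes tested were called in either direction. The name F4/80+ is kept here for the label, although the libraries also held abundant tubule transcripts.

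In whole kidney the levels of Umod and Kcnj1 varied little between mice. Relative to their means, Cldn16, Cldn19 and Irx1 varied most. Umod was at 2834, 2872 and 2615 CPM in Arg/Arg kidneys and at 2818, 2805 and 2656 CPM in Trp/Trp kidneys. Egf was at 1848, 2195 and 1845 CPM in Arg/Arg and at 2223, 2063 and 1853 CPM in Trp/Trp kidneys. Kcnj1 was at 338, 353 and 322 CPM in Arg/Arg and at 337, 326 and 313 CPM in Trp/Trp kidneys. The genotypes overlapped for each of these 3 transcripts, and the SD over the 6 kidneys was 105 CPM for Umod against a mean of 2767 CPM. Bsnd ranged from 49.1 to 58.8 CPM, Cldn10 from 206 to 241 CPM, Cldn16 from 10.5 to 13.9 CPM and Cldn19 from 36.5 to 50.3 CPM over the 6 kidneys. Ptger3 ranged from 66.3 to 87.1 CPM and Irx1 from 38.5 to 55.9 CPM.

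Divided by exon length, so that genes could be compared with each other, the kidney level was highest for Umod, at 1001 ± 37.9 CPM per kilobase of exon (SD, n = 6). Egf followed at 178 ± 15.9, then Kcnj1 at 99.5 ± 4.31 and Cldn10 at 85.3 ± 4.85 CPM per kilobase (SD, n = 6). Each of these 4 lay outside the range of the next in every kidney, although the lowest Kcnj1 value, 93.8, was close to the highest Cldn10 value, 93.1. Bsnd at 19.0, Irx1 at 17.3, Ptger3 at 13.7, Cldn16 at 9.99 and Cldn19 at 9.55 CPM per kilobase formed the lower part of the order, in which every neighbouring pair overlapped. In the F4/80+ libraries Umod, Egf, Kcnj1, Cldn10 and Bsnd kept these places, at 1304, 236, 185, 64.9 and 35.2 CPM per kilobase, and neighbours overlapped except Umod with Egf and Kcnj1 with Cldn10. Irx1 moved from the sixth place to the last, at 1.19 CPM per kilobase.

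**Figure D1:**
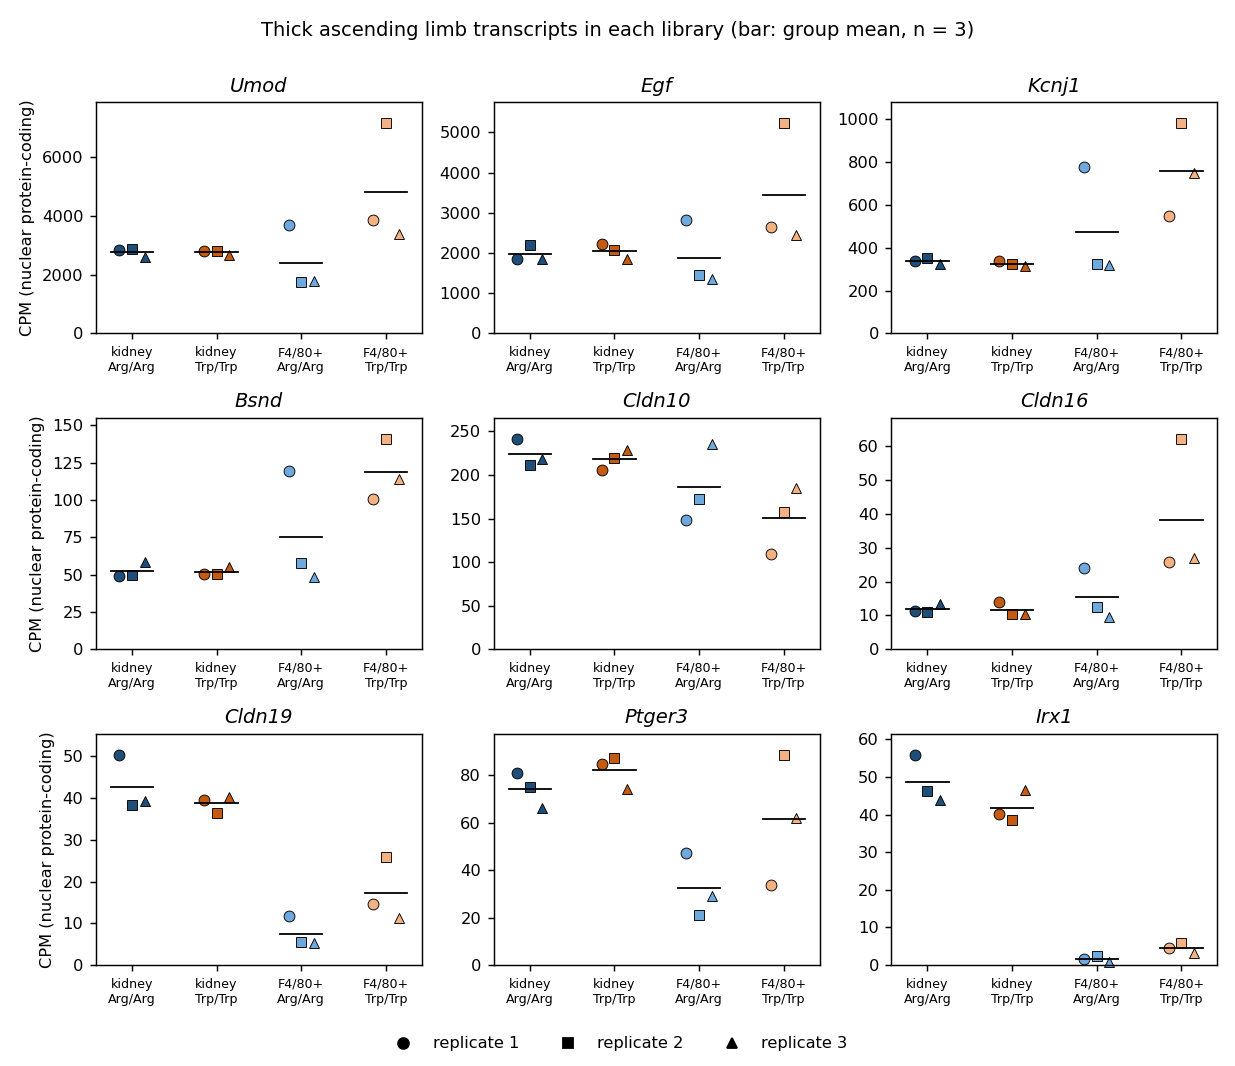
CPM over nuclear protein-coding counts (linear axes from 0) of each transcript in 12 libraries. Colours stand for the 4 groups, symbols for replicates and bars for group means. Kidney libraries lie close together for Umod, between 2615 and 2872 CPM, and less so for Cldn19 and Irx1. F4/80+ libraries spread widely for most genes, and Irx1 is under 6 CPM in all F4/80+ libraries.

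The first comparison asked whether the Sh2b3 genotype went with a different level of these transcripts in whole kidney. None of the 9 passed the quasi-likelihood test of edgeR, adjusted by Benjamini-Hochberg over 14464 genes, of which 0% were called. DESeq2 called 15 of all genes and none of the 9, and in edgeR 826 of all genes (5.71%) and none of the 9 had an unadjusted p under 0.05. Umod differed by -0.03 ± 0.06 on the log2 scale (SE), Trp/Trp over Arg/Arg, with a 95% interval from -0.17 to 0.12. Kcnj1 differed by -0.07, with an interval from -0.20 to 0.05. The widest intervals were those of Cldn16, from -0.33 to 0.24, and of Irx1, from -0.49 to 0.00. Irx1 was at 55.9, 46.3 and 43.9 CPM in Arg/Arg kidneys and at 40.2, 38.5 and 46.6 CPM in Trp/Trp kidneys, a log2 difference of -0.24 ± 0.11 (SE) with an edgeR adjusted p of 0.843. Its genotypes overlapped through Trp/Trp replicate 3. No transcript of the set separated the genotypes without overlap, while 10.3% of all genes did. The median log2 fold change was -0.04 over the set and 0.00 over all genes tested.

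In the F4/80+ libraries the same transcripts spread far more. Umod was at 3684, 1748 and 1776 CPM in Arg/Arg replicates 1, 2 and 3 and at 3867, 7156 and 3382 CPM in Trp/Trp replicates 1, 2 and 3. Egf was at 2829, 1447 and 1353 CPM in Arg/Arg and at 2646, 5222 and 2435 CPM in Trp/Trp libraries. Kcnj1 was at 778, 323 and 317 CPM in Arg/Arg and at 549, 980 and 750 CPM in Trp/Trp libraries. For all 3 transcripts Arg/Arg replicate 1 lay among the Trp/Trp libraries, and Trp/Trp replicate 2 was the highest of the 6. Bsnd had the same shape, at 119, 57.6 and 48.5 CPM in Arg/Arg and at 101, 141 and 114 CPM in Trp/Trp libraries.

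Among the claudins, Cldn16 was at 24.1, 12.4 and 9.49 CPM in Arg/Arg and at 25.7, 62.0 and 26.9 CPM in Trp/Trp libraries, without overlap. Cldn19, its partner, was at 11.8, 5.56 and 5.19 CPM in Arg/Arg and at 14.6, 25.8 and 11.3 CPM in Trp/Trp libraries, where Arg/Arg replicate 1 overlapped with Trp/Trp replicate 3. Cldn10 ran the other way, at 148, 173 and 236 CPM in Arg/Arg and at 109, 158 and 185 CPM in Trp/Trp libraries. Its highest library was Arg/Arg replicate 3, in which Cldn16 and Cldn19 were lowest. Ptger3 was at 47.4, 21.1 and 29.0 CPM in Arg/Arg and at 33.7, 88.5 and 62.1 CPM in Trp/Trp libraries, which overlapped. Irx1 rested on few reads, with counts of 12, 19 and 9 in Arg/Arg and of 52, 49 and 25 in Trp/Trp libraries. These were 1.74, 2.40 and 0.88 CPM against 4.67, 5.76 and 3.28 CPM, without overlap.

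The second comparison asked the same question of genotype in these libraries, and no transcript of the set passed. edgeR called 0% of 15225 genes after Benjamini-Hochberg adjustment, and DESeq2 called 14 of the 6183 genes to which it gave an adjusted p. These 6183 included 6 of the 9, none of them called, but not Cldn16, Cldn19 and Irx1. At an unadjusted p under 0.05, edgeR gave 6 of the 9 as higher in Trp/Trp libraries, namely Umod, Egf, Cldn16, Cldn19, Ptger3 and Irx1, where 4.43% of all genes were higher and 8.04% (1224 genes) were under that p in either direction. The log2 difference was 1.20 ± 0.36 for Cldn16 (SE, edgeR adjusted p = 0.605), 1.32 ± 0.47 for Irx1, 1.10 ± 0.35 for Cldn19 and 0.89 ± 0.34 for Umod, each with the same adjusted p. Over the 9 the edgeR adjusted p ranged from 0.605 to 0.703. Cldn10 had the only negative difference, -0.46 ± 0.29 (SE), with a 95% interval from -1.09 to 0.16. Cldn16 and Irx1 were the transcripts without overlap between genotypes, both higher in Trp/Trp, as were 7.19% of all genes. The difference was above 0 for 8 of the 9 transcripts and for 51.1% of all genes, and the median was 0.80 over the set against 0.01 over all genes. Leaving out single libraries moved Umod from 0.57 (without Trp/Trp replicate 2) to 1.18 (without Arg/Arg replicate 1). The count of 6 higher at an unadjusted p under 0.05 fell to 1, Cldn16, without Trp/Trp replicate 2, to 2 without Arg/Arg replicate 3 and to 3 without Arg/Arg replicate 2, and was 8 without Arg/Arg replicate 1, where Cldn10 was also lower at such a p.

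**Figure D2:**
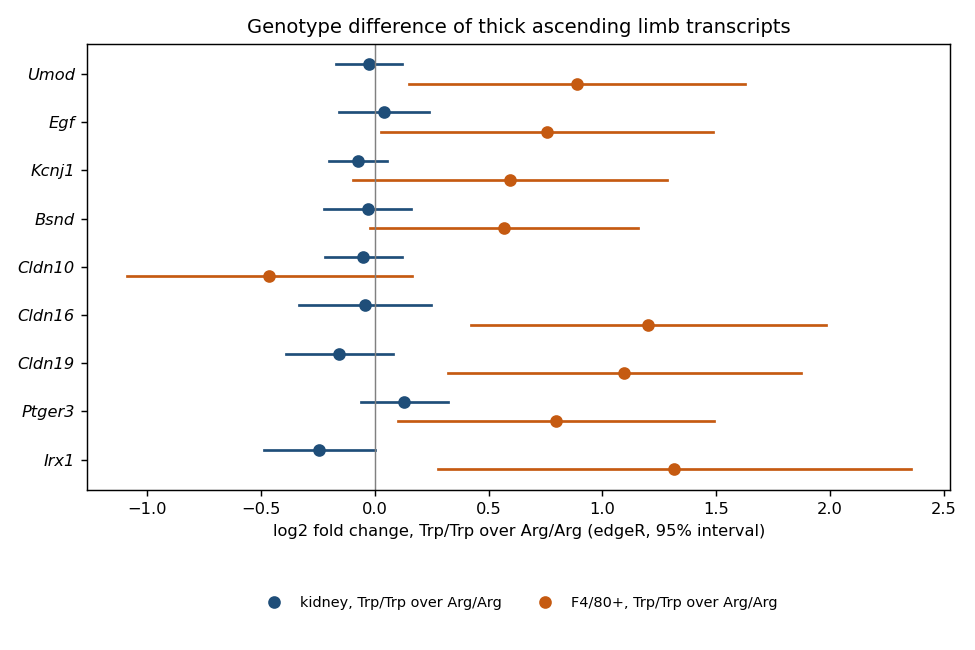
Log2 fold change of Trp/Trp over Arg/Arg (x axis) for each transcript, with dots for the edgeR estimate and lines for its 95% interval, n = 3 libraries per group. Kidney estimates lie between -0.24 and 0.13, while F4/80+ estimates lie between 0.57 and 1.32 except for Cldn10 at -0.46. None passed after adjustment.

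Markers of other tubule segments moved with this difference. All 12 proximal tubule genes had a lower fitted level in Trp/Trp F4/80+ libraries, with a median log2 difference of -0.92, and their summed level was 12270, 23740 and 22800 CPM in Arg/Arg and 16880, 7751 and 11300 CPM in Trp/Trp libraries. The 6 genes of the distal convoluted tubule were all higher, with a median of 0.59, as were the 6 of collecting duct principal cells, with a median of 0.73, and the 6 of intercalated cells, with a median of 0.46. All 11 macrophage genes tested were higher, with a median of 1.29, and the summed level of the list was 143, 49.4 and 39.8 CPM in Arg/Arg and 125, 182 and 213 CPM in Trp/Trp libraries. No gene of any of these lists was called by edgeR, and the part of these shifts in the differences of the 9 transcripts was not tested. The summed level of the 9 transcripts was 0.623, 0.160 and 0.166 times that of the proximal tubule genes in Arg/Arg and 0.436, 1.79 and 0.617 times in Trp/Trp libraries, against 0.264 to 0.328 times in kidney. In RNA from many cells, fewer cells of a type and less RNA per cell cannot be told apart. Trp/Trp replicate 1 also had the lowest mitochondrial share, 70.1%, whereas the other F4/80+ libraries were between 76.6 and 83.6%, and the part of this in the result was not tested.

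**Figure D3:**
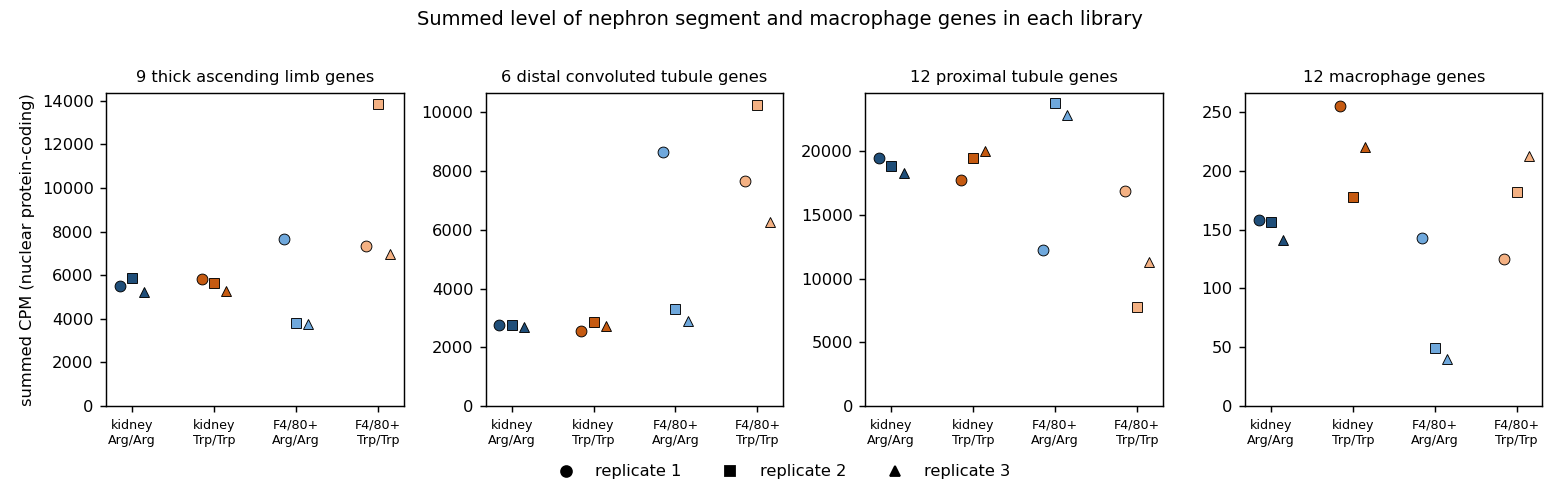
Summed CPM over nuclear protein-coding counts (linear axes from 0) of 4 gene lists in each library, with symbols for replicates. In the F4/80+ groups, Arg/Arg replicates 2 and 3 are lowest for the thick ascending limb (3789 and 3775 CPM), distal convoluted tubule and macrophage lists and highest for the proximal tubule list.

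A direct test of whether the genotype difference was unlike in kidney and F4/80+ libraries passed for none of the 9 transcripts. edgeR called 0% of 13578 genes for the interaction, with 921 genes (6.78%) at an unadjusted p under 0.05. Irx1 had the largest interaction of the set, 1.58 ± 0.38 on the log2 scale (SE), with an edgeR adjusted p of 0.684, and DESeq2 called it with an adjusted p of 0.0484 among 7 genes in all. Umod, Cldn16 and Cldn19 were the others with an unadjusted p under 0.05, at 0.90, 1.24 and 1.25. The count of calls depended on F4/80+ Arg/Arg replicate 1, without which edgeR called 580 genes. Kcnj1 at 1.08, Bsnd at 0.95 and Cldn19 at 1.60 were then among them, with adjusted p of 0.0361, 0.0332 and 0.0361.

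The sample types were compared next, with genotype as a term in the model. Relative to nuclear protein-coding genes as a whole, barttin and ROMK transcripts rose in F4/80+ libraries, Cldn16 rose, and Cldn19, Ptger3 and Irx1 fell. In all 6 of the 9 passed the edgeR test with Benjamini-Hochberg adjustment, 3 in each direction, which is close to the 64.5% of 13452 genes that passed (32.6% higher and 31.9% lower). The isolation procedure, the deposited table and the sample type cannot be told apart. Lists of other tubule segments shifted as well. Of 6 distal convoluted tubule genes 5 were called higher, with a median log2 difference of 1.38. Of 6 principal cell genes 4 were called higher and 1 lower (median 1.01). Of 6 intercalated cell genes 5 were called higher and 1 lower (median 1.97). Of 12 proximal tubule genes 2 were called higher and 5 lower (median -0.36). The part of these shifts in the differences of the 9 transcripts was not tested. Bsnd was higher by 0.96 ± 0.17 (SE, log2 scale, edgeR adjusted p = 0.000201) and Kcnj1 by 0.96 ± 0.20 (edgeR adjusted p = 0.000758). Cldn16 was higher by 1.16 ± 0.28 (edgeR adjusted p = 0.00217). Umod at 0.40 ± 0.23, Egf at 0.45 ± 0.22 and Cldn10 at -0.26 ± 0.16 did not pass, with edgeR adjusted p of 0.14, 0.0853 and 0.161. Egf passed at 0.53 without Arg/Arg replicate 2 and at 0.56 without Arg/Arg replicate 3 of the F4/80+ libraries, and Cldn10 passed at -0.40 without Arg/Arg replicate 3 and at -0.40 without a scaling factor.

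Irx1 differed most. It was at 38.5 to 55.9 CPM in kidney (median 45.1) and at 0.88 to 5.76 CPM in F4/80+ libraries (median 2.84), a 13.7-fold lower fitted level (log2 -3.77 ± 0.27 SE, edgeR adjusted p = 3.91e-08). Cldn19 was at 36.5 to 50.3 CPM in kidney (median 39.5) and at 5.19 to 25.8 CPM in F4/80+ libraries (median 11.5), which is 3.24-fold lower (edgeR adjusted p = 4.23e-05). Irx1 and Cldn19 were the transcripts of the set without overlap between sample types, both lower, as were 27.3% of all genes. Ptger3 fell by 0.69 on the log2 scale (edgeR adjusted p = 0.00913), with overlap through Trp/Trp replicate 2, the library highest for Umod.

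Each transcript was then set against Umod in the same library, as counts per 1000 Umod counts, so that the amount of thick ascending limb RNA in a library would cancel if all 9 transcripts varied with it. This ratio was chosen after the values were seen, and 8 ratios were tested by exact permutation of 6 against 6 libraries, two-sided, for which 0.00216 is the smallest possible p. The share of all genes whose ratio to Umod separates the sample types was not computed. Since edgeR called 64.5% of all genes between sample types, a separation below cannot be read as particular to these transcripts. Egf was at 724 ± 49.4 per 1000 Umod counts in kidney and at 749 ± 49.2 in F4/80+ libraries (SD, n = 6 each, exact permutation p = 0.400). The Egf ratio thus stayed within 652 to 828 over all 12 libraries, while the Umod level itself ranged from 1748 to 7156 CPM.

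Kcnj1 was at 116 to 123 per 1000 Umod counts in kidney and at 137 to 222 in F4/80+ libraries, without overlap (exact permutation p = 0.00216, adjusted 0.00346). Bsnd was at 17.3 to 22.5 in kidney and at 19.7 to 33.8 in F4/80+ libraries (exact permutation p = 0.00649, adjusted 0.00866). These genes of potassium recycling and chloride exit kept their ratio to each other, with 0.158 ± 0.0174 Bsnd counts per Kcnj1 count in kidney and 0.161 ± 0.0162 in F4/80+ libraries (SD, n = 6 each).

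The claudins of calcium and magnesium transport went apart from each other. Cldn16 was at 3.73 to 5.07 per 1000 Umod counts in kidney and at 5.34 to 8.67 in F4/80+ libraries, and Cldn19 at 13.0 to 17.8 in kidney and at 2.92 to 3.78 in F4/80+ libraries. Neither overlapped between sample types (exact permutation p = 0.00216, adjusted 0.00346 for each), and the Cldn19 ratio was 4.40-fold lower. There were 0.224 to 0.349 Cldn16 counts per Cldn19 count in kidney and 1.75 to 2.40 in F4/80+ libraries. Cldn10 was at 73.2 to 86.2 per 1000 Umod counts in kidney and scattered from 22.1 to 133 in F4/80+ libraries (exact permutation p = 0.165, adjusted 0.188).

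Ptger3 was at 25.4 to 31.1 per 1000 Umod counts in kidney and at 8.73 to 18.4 in F4/80+ libraries, and Irx1 at 13.7 to 19.7 in kidney and at 0.474 to 1.37 in F4/80+ libraries. The fall was 2.15-fold for Ptger3 and 19.8-fold for Irx1 (exact permutation p = 0.00216, adjusted 0.00346 for each). With the 9 transcripts together as the denominator, the log2 difference of Irx1 was -4.33 in place of -4.31 and that of Cldn19 -2.16 in place of -2.14. Between genotypes of the F4/80+ libraries no ratio passed, and 3 against 3 libraries cannot give an exact permutation p under 0.1. That smallest p was reached by Egf, at 786 per 1000 Umod counts in Arg/Arg and 711 in Trp/Trp libraries, and by Cldn19, at 3.10 and 3.58, with adjusted p of 0.4 in both.

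**Figure D4:**
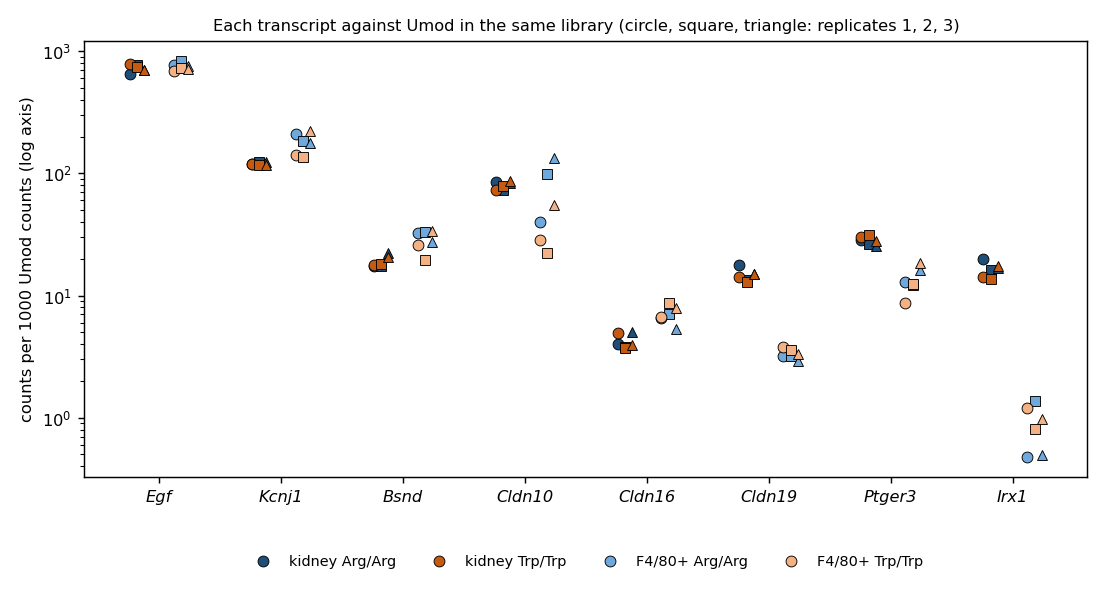
Counts of 8 transcripts per 1000 Umod counts of the same library (log axis), with colours for the 4 groups and symbols for replicates. Egf lies at the same height in kidney and F4/80+ libraries, Kcnj1, Bsnd and Cldn16 lie higher in F4/80+ libraries, and Cldn19, Ptger3 and Irx1 lie lower, Irx1 by 19.8-fold.

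Other genes of the segment were called in both directions between sample types, where 64.5% of all genes were called (32.6% higher and 31.9% lower). Of 14 tested ion transport genes, including subunits of the sodium pump, chloride channels and regulatory kinases, 8 were called higher and 3 lower in F4/80+ libraries, with a median log2 difference of 0.46 against 0.00 over all genes. Among those of highest level, Atp1b1 (the beta subunit of the pump) differed by 0.41, Wnk1 (a kinase upstream of NKCC2) by 2.04 and Fxyd2 (the gamma subunit of the pump) by 0.16, of which Fxyd2 did not pass. Slc12a1, the gene of NKCC2, was at 1584 to 1997 CPM in kidney and at 483 to 2734 CPM in F4/80+ libraries, and fell by 0.77 (edgeR adjusted p = 0.0343). Of 11 genes enriched in the segment or regulating its genes, 4 were called higher and 5 lower, with a median of 0.13. Tmem52b rose by 2.59 and Tmem72 by 0.64, while Hpn, a membrane protease, fell by 0.96. Of the same list, and chosen after their values were seen, the Iroquois genes Irx2 and Irx3 fell with Irx1, by 2.14 and 2.90, and the transcription factor Pou3f3 fell by 1.13. By genotype 0 genes of either list were called in kidney or F4/80+ libraries, with medians of 0.49 and 0.51 in F4/80+ libraries.

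The genes whose profile over all 12 libraries was nearest to the mean profile of the 9 transcripts were Fads6, Perm1, Rilpl1, Tle1, Zfp109 and 2410002F23Rik. They lay at root mean square differences of 0.110 to 0.162 in log2 CPM, out of 10982 genes with a median of 0.531. The 9 transcripts themselves lay at 0.304 for Ptger3 to 1.72 for Irx1. Over the 6 F4/80+ libraries alone the nearest were Ap3m2, Perm1, Celf2, Slc39a6, Aldoc and Heg1, at 0.0807 to 0.108. There Egf lay at 0.137, Umod at 0.170, Bsnd at 0.181 and Kcnj1 at 0.191, while Cldn10 was the farthest of the set at 0.782, beyond the median of 0.534.

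In the authors' deposited table the genotype differences in F4/80+ libraries had the same directions, from -0.50 for Cldn10 to 1.29 for Irx1 in log2 units. The authors' deposited table gave no p-value for Umod, Egf and Cldn16 in F4/80+ libraries and no adjusted p for these or for Cldn19 and Irx1. It lacked a p-value for 2475 of 18145 genes, for a reason that the sources used here did not give. Reads of Egf could include those of overlapping genes on the opposite strand, since the counting was not stated to use strand, but the largest count of such a gene was 225 in any F4/80+ library. The deposited kidney counts did not include these overlapping genes, so their reads in kidney could not be looked at. Egf also overlapped a microRNA gene on its own strand, with at most 61 counts in an F4/80+ library. Cldn19 overlapped an antisense gene with at most 9 counts in an F4/80+ library. Umod and Cldn10 each overlapped a gene on the opposite strand that the deposited counts of neither sample type included, so its reads could not be looked at.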

How the data were processed

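Polyadenylated RNA was sequenced in 12 libraries, grouped by genotype and sample type from the labels, which call the replicates biological. Per the submitters' processing notes, STAR, DRAGEN, DESeq2 and the build mm10 were used, with roles and versions not given in the sources used here, nor the annotation release. The deposited tables, one per sample type, held the authors' raw counts per gene and library, with library totals of 19.6 to 54.7 M (M for 1000000) in kidney and 35.9 to 51.6 M in F4/80+ libraries. They also held the authors' log2 fold change and p-value, which were turned to Trp/Trp over Arg/Arg where needed. The remaining deposited columns were not used.

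The analysis used edgeR 4.0.16 and DESeq2 1.42.0 in R 4.3.3. Low genes were removed by filterByExpr with the model design. It asked for a CPM equal to a count of 10 at the median library size, and for a total count of 15. The main genotype and interaction tests asked for that CPM in 3 libraries, and the comparison of sample types in 4. TMM scaling was applied, and genes were tested with the quasi-likelihood test, Benjamini-Hochberg adjustment and a threshold of 0.05. Genotypes were compared within each table, and the sample types and the interaction over shared nuclear protein-coding genes. Ratios were tested by exact permutation in Python 3.11.15 with scipy 1.17.1, adjusted over 8 ratios. The procedure was tested on simulated data. Exon lengths came from GENCODE, whose coordinates for the 9 genes equalled those in the tables. The nearest profiles were taken over genes with a mean of at least 5 CPM in kidney, as log2(CPM + 0.5), centred. Genes were named as all 9 of the set, the 4 of highest mean CPM in a list described by name, and the 6 nearest profiles. Some genes that this rule names are not reported here. The genes and lists were chosen with earlier results of these data known. The ratios to Umod were added after seeing the data, and so was the naming of Slc12a1, Irx2, Irx3 and Pou3f3. Alternatives were other scalings, no filter, DESeq2, nuclear protein-coding genes only, a replicate block and leaving out each library. The common biological coefficient of variation was 0.101 in kidney and 0.28 in F4/80+ libraries.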

Additional observations from a re-analysis of the deposited data

Results flagged for a closer look

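In the F4/80+ libraries, Cldn16 in Trp/Trp replicate 2 was at 62.02 CPM, apart from the other 5 libraries, which lay between 9.49 and 26.9 CPM. The same library was the highest of the 6 for each of the 9 transcripts except Cldn10. In kidney, Cldn19 in Arg/Arg replicate 1 was at 50.3 CPM, apart from the other 5 kidneys, which lay between 36.5 and 40.2 CPM. Each was picked out because its gap to the nearest of the other 5 libraries of its sample type was large relative to the whole range. Chance picks out about 1 in 20 such groups of values, and 34 were looked at, counting the levels of the 9 transcripts and 8 ratios to Umod in each sample type.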

How the results depend on the processing

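The direction of all 9 transcripts in F4/80+ libraries, in the comparison of sample types and in the interaction was kept under every alternative run, with 8 of the 9 above 0 in F4/80+ libraries each time. DESeq2 called 15 genes in kidney, 14 in F4/80+ libraries and 7 for the interaction, where edgeR called 0. Leaving out single libraries gave 0 to 580 interaction calls. In kidney, where no difference passed, leaving out single libraries moved Egf from -0.0053 to 0.133, Cldn10 from -0.0979 to 0.00764, Umod from -0.0690 to 0.00415, Bsnd from -0.0888 to 0.0509 and Cldn16 from -0.171 to 0.0392, so that their signs turned. Without a scaling factor the median of all genes shifted to 0.23 in F4/80+ libraries, 0.14 for the interaction and -0.14 between sample types. Umod then differed by 1.11 between F4/80+ genotypes. Between sample types that setting called Cldn10 lower, at -0.40, and 41.3% of all calls were higher in place of 50.6%. The cause of these changes was not tested, other than that fewer libraries or another scaling entered. Same-numbered replicates of the genotypes correlated in their deviations at -0.186, 0.0274 and -0.0416 in kidney and at -0.4, -0.689 and 0.265 in F4/80+ libraries. Differently numbered replicates of the F4/80+ libraries correlated at -0.225 to 0.673. The labels do not say whether the numbers pair the samples. These few correlations cannot settle it, since the deviations of 3 libraries from their group mean depend on each other. With the replicate block edgeR called 0 genes in either genotype comparison, and Umod differed by 0.87 in F4/80+ libraries (edgeR adjusted p = 0.946), with 3 of the 9 higher at an unadjusted p under 0.05 in place of 6. The count of genes at an unadjusted p under 0.05 in F4/80+ libraries ranged from 364 to 2788 over single libraries left out. Depth limits Irx1 most in F4/80+ libraries, where counts were 9 to 52.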
